A study of Brassica napus with 33 samples.

Results

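The calcium (Ca) transporter genes of oilseed rape roots described here are 56 of the 302 ion transport genes that the study listed, out of 101040 genes in the count files. The study assembled that list from genes called differentially expressed under at least 1 macronutrient deprivation of 10 days. It searched the gene annotation for transport, and added genes of the ontology term for ion transport that were clearly tied to a known element. The 56 are those it assigned to Ca alone. The 10-day comparisons therefore chose these genes, and their values at 10 days are given as a description, with no test. The 56 genes were grouped by annotated protein domains, and by ontology (GO) term for 3 P-type ATPases with no subfamily annotation. There were 9 Ca/proton exchangers of the CAX type and 5 exchangers with Ca-binding EF-hands beside a sodium/calcium exchanger region. Another 16 were Ca-pumping P-type ATPases (15 of them annotated as subfamily IIB), and 4 were EF-hand proteins with an ion transport domain. The domain of the mitochondrial Ca uniporter (MCU) was in 10, and 10 were P-type ATPases of the proton pump type (8 annotated as subfamily IIIA). The remaining 2 genes had no annotated domain. The label Ca transporter thus goes beyond the annotation for the 10 proton pumps. Of the genes without a domain, BnaC02g29530D carries a GO term for Ca channel activity and BnaAnng35100D one for uniporter activity. Of the 56 genes, 29 were of the A subgenome and 27 of the C subgenome.

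Plants of Brassica napus cv. Trezzor were grown in hydroponics for 24 days on a complete nutrient solution, which all groups share. They were then kept for 10 days on a solution without potassium (K), nitrogen (N), sulfur (S), phosphorus (P), magnesium (Mg) or Ca, with controls on the complete solution (7 conditions, 21 libraries), or harvested after 22 days without chlorine (Cl), cobalt (Co) or manganese (Mn), again with controls (4 conditions, 12 libraries). Each condition had 3 libraries of root mRNA, and each library pooled the roots of a pair of plants. The labels state different growth temperatures in different fields. The count files name genes by Genoscope identifier only, so markers of root tissue were not checked here.

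Ca2+ is kept very low in the cytosol of plant cells, where its rises act as signals, while the vacuole, the cell wall and the endoplasmic reticulum hold most of it. Channels let Ca2+ into the cytosol down its gradient. Pumps of the IIB type, which calmodulin activates, and CAX exchangers, which trade Ca2+ for protons, remove it again, and plasma membrane proton pumps make the proton gradient that drives secondary transport in roots.

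Libraries held 10115284 to 22841765 read pairs counted on genes. Values are counts per 1000000 (CPM) after TMM normalization over all 33 libraries, and because gene lengths were not used, levels are compared only within a gene. Fold changes are log2 ratios of deprived over control roots. A gene is called where its p from the quasi-likelihood test of edgeR, after Benjamini-Hochberg adjustment across the genes tested, was 0.05 or lower. Replicates 1 and 2 of the 22-day controls were nearly one library: their counts had a chi-square of 1.28 per degree of freedom over 51498 genes, against 4.99 to 49 for the other same-condition pairs. The counts of called genes, the medians and the adjusted p of single genes at 22 days are therefore also given with these libraries summed and counted as 1 sample. The methods of the study, which describe the harvest at 10 days, call the libraries of a condition independent replicates. The tests measure the spread between libraries, which for the 22-day controls includes the nearly identical pair.

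Ca deprivation was the treatment under which most of the genes were called, and P and N deprivation came next, mostly with lower values. Under Ca deprivation 37 of the 56 genes were called, 9 higher and 28 lower, where 26.5% of all 56667 genes tested were called, 12.6% higher and 13.9% lower. Under P deprivation 25 were called, 4 higher and 21 lower, where 29.3% of all genes were called, 15.1% higher and 14.3% lower. Under N deprivation 20 were called, 5 higher and 15 lower, where 20.1% of all genes were called, 9.0% higher and 11.1% lower. Mg deprivation had 11 called genes, 9 higher and 2 lower, and 3.58% of all genes, 2.34% higher and 1.24% lower. S deprivation had 10 called genes, 3 higher and 7 lower, and 8.84% of all genes, 4.22% higher and 4.63% lower. K deprivation had 1 called gene, which was higher, and 1.26% of all genes, 0.916% higher and 0.346% lower. Since these comparisons selected the genes, nothing is read from the difference between their counts and the percentages over all genes. The same percentages and the same limit apply to the counts by annotated class given below. All 56 genes passed the filter on low counts at 10 days.

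The median log2 fold change over the 56 genes was −0.76 under Ca, −0.67 under P, −0.46 under N, −0.28 under S, −0.05 under Mg and 0.14 under K deprivation. Over all genes tested the medians lay between −0.04 under P and 0.01 under N deprivation. With genes that had no more than 3 counts in any library of a condition set to the bound these counts allow, the median was −0.45 under N and −0.25 under S deprivation. All 6 comparisons share the 3 control libraries.

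The counts of the shorter lists were often lower when 1 library was left out. Each such fit also has fewer libraries, and the cause of the lower counts was not tested. The Mg count was 0 without replicate 1 of the Mg-deprived roots, with 20 genes at an unadjusted p of 0.05 or less, 3 without control replicate 2, 6 without control replicate 1 and 6 without Mg replicate 3. The S count was 1 without S replicate 1, 1 without control replicate 2, 4 without S replicate 3 and 5 without control replicate 3. The N count was 11 without control replicate 3 and 12 without N replicate 3. The K count was 0 without K replicate 2, K replicate 3, control replicate 2 or control replicate 3, with 8 to 11 genes at an unadjusted p of 0.05 or less. The P count stayed between 18 and 26 and the Ca count between 30 and 36 when any 1 library was left out.

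**Figure D1:**
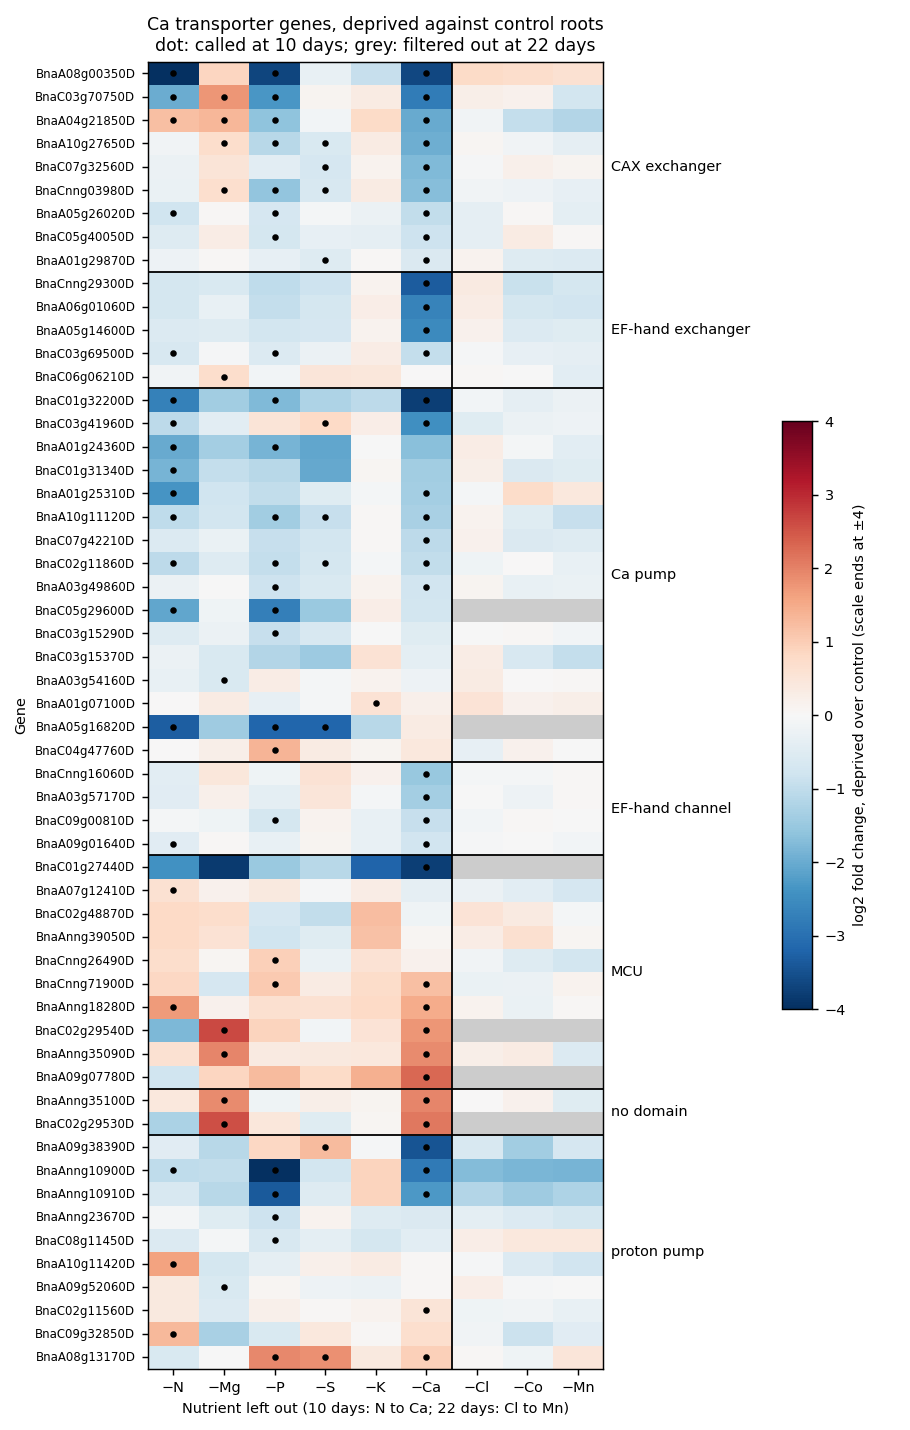
Log2 fold change of the 56 Ca transporter genes (rows, grouped by annotated class and sorted by the change under Ca deprivation) for 9 deprivations against their own controls (columns); colour gives the log2 fold change, dots mark genes called at 10 days, and grey marks 6 genes removed by the low-count filter at 22 days. The 9 CAX exchangers and 4 EF-hand channels are all blue and dotted in the Ca column, and no gene was called in the 22-day columns.

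Across the 6 deprivations 53 of the genes were called at least once, as were 50.3% of all 56667 genes, and 56 with the likelihood ratio test that the study used. Of the 53, 22 were called under 1 deprivation, 17 under 2, 8 under 3 and 6 under 4. The genes lower under both P and Ca deprivation numbered 15 (6.68% of all genes), of which 8 were lower under N deprivation as well (3.56% of all genes). The genes called under Ca deprivation and no other numbered 9 (7.96% of all genes), and 6 genes were called in opposite directions under different deprivations (3.70% of all genes). The same calls chose the genes, so nothing is read from these shares.

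All 9 CAX exchanger genes were called lower in Ca-deprived roots, with log2 fold changes from −3.64 to −0.58. CAX proteins load Ca2+ into the vacuole in exchange for protons. BnaA08g00350D had 0.0854, 0.475 and 0.193 CPM in Ca-deprived roots against 1.81, 4.90 and 3.96 CPM in controls, a log2 fold change of −3.64, or −4.51 without Ca replicate 2. In P-deprived roots BnaA08g00350D was at 0.151, 0.145 and 0.520 CPM, and the N-deprived libraries of 0.170, 0.195 and 0.175 CPM held at most 3 counts each, at least 17.1-fold lower than controls. These low values lay apart from the control libraries of BnaA08g00350D, whereas its Mg-deprived libraries of 3.25, 7.16 and 8.92 CPM overlapped with them.

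BnaC03g70750D had 0.0854, 0.211 and 0.193 CPM in Ca-deprived roots against 1.73, 0.760 and 1.30 CPM in controls, and its log2 fold change was −2.81. Its Ca-deprived libraries held at most 4 counts each, which limits the precision of this value. The same gene, BnaC03g70750D, had 5.24, 4.34 and 3.49 CPM in Mg-deprived roots, all above the 3 controls, with a log2 fold change of 1.77. It was also called lower under N deprivation (0.255, 0.260 and 0.408 CPM) and P deprivation (0.453, 0.0727 and 0.223 CPM). BnaC03g70750D thus moved in opposite directions without Mg and without Ca, and its libraries did not overlap with the controls in either.

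BnaA04g21850D had 2.99, 1.64 and 3.16 CPM in Ca-deprived roots against 15.6, 6.42 and 9.51 CPM in controls (log2 fold change −2.02). In Mg-deprived roots BnaA04g21850D had 43.1, 18.9 and 18.1 CPM (log2 fold change 1.34), and in N-deprived roots 23.1, 20.4 and 28.4 CPM (log2 fold change 1.20). Every Mg- and N-deprived library was above every control, and every Ca-deprived library below. Mg replicate 1 stood well above the other Mg libraries for BnaA04g21850D.

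Higher values without Mg together with lower values without Ca were called for 4 CAX genes and for no gene of another class, where 167 of all 56667 genes had both calls. Besides BnaC03g70750D and BnaA04g21850D these were BnaA10g27650D, with 61.6, 50.4 and 66.3 CPM without Mg and 10.3, 7.92 and 9.35 CPM without Ca against 31.3, 41.3 and 35.5 CPM in controls, and BnaCnng03980D. BnaCnng03980D had 35.7, 26.1 and 35.6 CPM without Mg, and 5.55, 7.44 and 5.42 CPM without Ca, against 19.1, 22.1 and 19.4 CPM in controls. For BnaA10g27650D and BnaCnng03980D alike, no deprived library of these conditions overlapped with a control. All 9 CAX genes had a log2 fold change above 0 without Mg, from 0.05 to 1.77, of which these 4 were called. All 9 were below 0 without P, where 7 were called. The calls at 10 days chose the genes, so nothing is read from the count of 4 beside that over all genes. No Ca transporter gene was called under Mg deprivation without Mg replicate 1, or with only the conditions compared in the fit.

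Among the 5 EF-hand exchangers, 4 were called lower in Ca-deprived roots. In Arabidopsis a protein of this domain make-up, NCL, exchanges Na+ and Ca2+. BnaA06g01060D had 39.4, 42.5 and 49.7 CPM in Ca-deprived roots against 371, 363 and 124 CPM in controls, a log2 fold change of −2.69. BnaA05g14600D had 40.2, 46.0 and 46.5 CPM against 326, 341 and 116 CPM (log2 fold change −2.54). BnaCnng29300D had 19.5, 13.2 and 15.5 CPM against 222, 217 and 54.3 CPM (log2 fold change −3.34). The 3 Ca-deprived libraries were close together and below all controls for each of these genes, and control replicate 3 was far below the other controls. Without control replicate 3 the log2 fold changes were −3.04 for BnaA06g01060D, −2.89 for BnaA05g14600D and −3.75 for BnaCnng29300D.

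The remaining EF-hand exchangers changed less. BnaC03g69500D had 50.5, 54.8 and 59.5 CPM in Ca-deprived roots against 120, 122 and 80.3 CPM in controls, and was also called lower under N and P deprivation. BnaC06g06210D, the exception under Ca deprivation, had 28.5, 38.0 and 35.3 CPM there against 42.9, 28.8 and 30.9 CPM in controls, which overlap. BnaC06g06210D was the EF-hand exchanger called without Mg, with 64.5, 49.9 and 54.6 CPM, all above the controls, and a log2 fold change of 0.72.

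**Figure D2:**
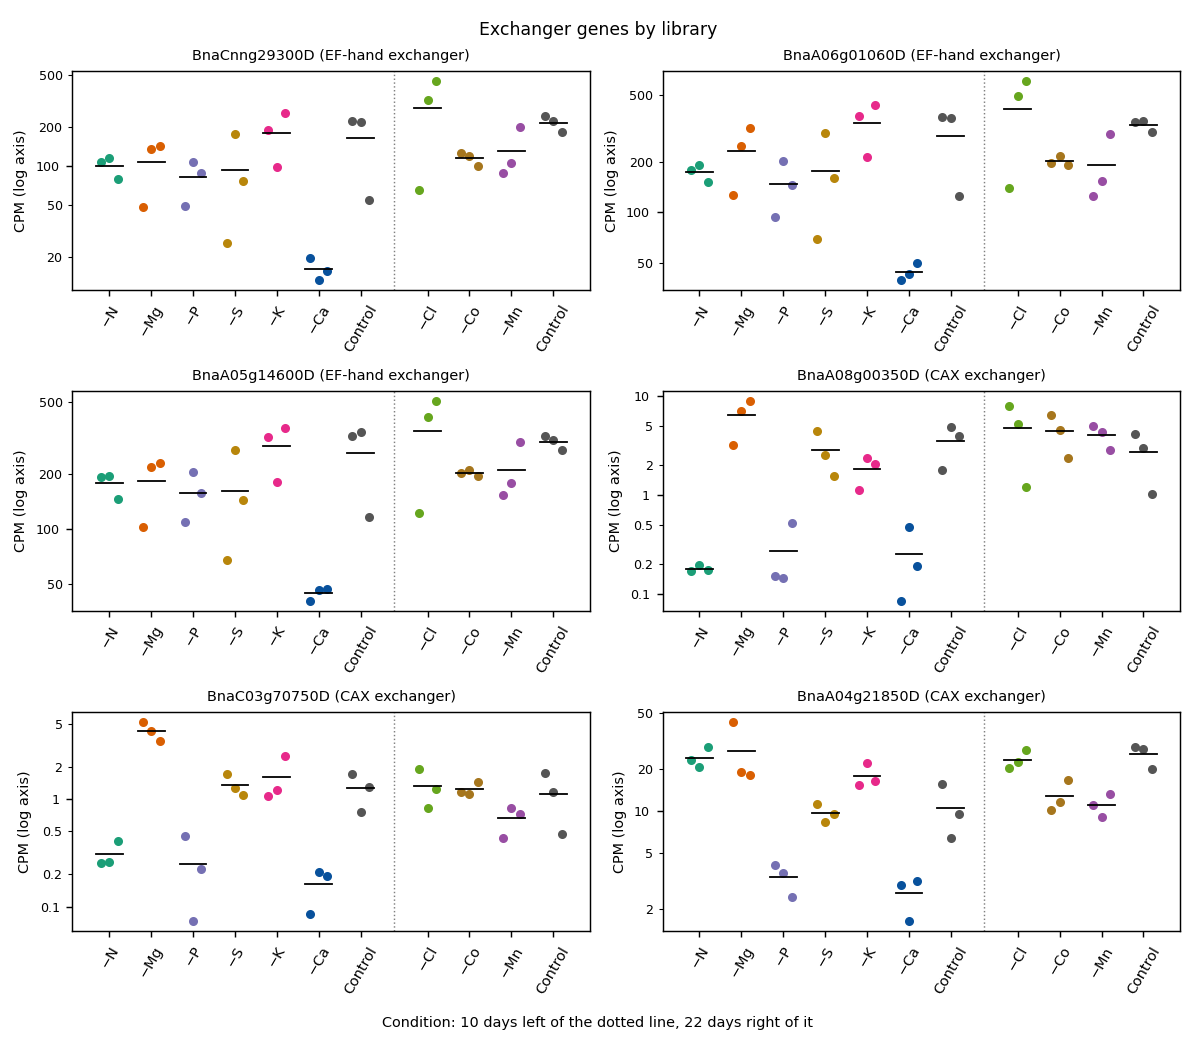
CPM on a log axis in every library of the 11 conditions for 3 EF-hand exchangers and 3 CAX exchangers; points are libraries and bars the mean CPM of 3 libraries. For the EF-hand exchangers the Ca-deprived libraries lie lowest (39.4 to 49.7 CPM for BnaA06g01060D), and the CAX gene BnaC03g70750D is high without Mg and low without N, P or Ca.

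Lower values of Ca pump genes were spread over several deprivations: 9 of the 16 were called lower without N, 8 without P, 7 without Ca, 3 without S and 1 without Mg. Over all genes tested, 11.1%, 14.3%, 13.9%, 4.63% and 1.24% were called lower in these comparisons. The same calls chose the genes, so nothing is read from these counts. Over 14 alternatives the count lower without Ca was 5 to 8. The median log2 fold change of the 16 pump genes was −1.03 without N, −0.98 without P and −0.87 without Ca. Ca pumps of subfamily IIB move Ca2+ out of the cytosol at the cost of ATP. BnaC03g41960D had 2.05, 1.48 and 1.55 CPM in Ca-deprived roots against 9.42, 8.78 and 9.79 CPM in controls (log2 fold change −2.46), with no overlap. In S-deprived roots BnaC03g41960D had 17.5, 13.4 and 17.8 CPM and was called higher (log2 fold change 0.81), and in N-deprived roots it had 5.02, 5.20 and 3.38 CPM and was called lower (−1.04). BnaC03g41960D was the Ca pump called higher without S and lower without Ca.

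BnaC01g32200D had 0.0854, 0.211 and 0.322 CPM in Ca-deprived roots against 1.96, 2.11 and 4.97 CPM in controls, a log2 fold change of −3.76, or −3.17 without control replicate 3. Its N-deprived libraries had 0.596, 0.715 and 0.117 CPM and its P-deprived libraries 0.755, 1.09 and 0.817 CPM. All 9 of these libraries were below the controls of BnaC01g32200D. The Ca-deprived libraries of BnaC01g32200D held few counts, which limits the precision of its fold change.

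BnaC01g31340D had 40.2, 24.1 and 19.8 CPM in N-deprived roots against 63.9, 139 and 105 CPM in controls, a log2 fold change of −1.87, and was called under no other deprivation. Its largest difference was under S deprivation, with 5.10, 48.8 and 21.4 CPM and a log2 fold change of −2.04 that was not called. The S-deprived libraries of BnaC01g31340D were all below the controls but far from each other. Without S replicate 1 the value under S was −1.55, and without S replicate 2 it was −2.97.

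BnaA05g16820D, a gene of few counts, was called lower without N (0.0851, 0.195 and 0.233 CPM), P (0.0755, 0.509 and 0 CPM) and S (0.0586, 0.389 and 0.205 CPM). Its controls had 0.314, 1.27 and 3.82 CPM, so the libraries overlapped for P and S, and the highest control carried most of the difference. In Ca-deprived roots BnaA05g16820D had 3.33, 1.90 and 1.74 CPM, within the range of the controls.

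Higher values of Ca pumps were called for 3 genes, each under 1 deprivation. BnaC04g47760D had 24.2, 24.5 and 35.0 CPM in P-deprived roots against 9.03, 12.3 and 11.4 CPM in controls, a log2 fold change of 1.35 with no overlap. BnaA01g07100D was the single Ca transporter gene called without K, at 23.7, 22.1 and 22.1 CPM against 15.7, 15.9 and 13.8 CPM in controls (log2 fold change 0.58). The third was BnaC03g41960D under S deprivation, given above. The Ca pump called lower without Mg was BnaA03g54160D, with 48.9, 55.4 and 50.7 CPM against 80.4, 83.5 and 70.0 CPM in controls.

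All 4 EF-hand channel genes were called lower in Ca-deprived roots, with log2 fold changes from −1.51 to −0.76. EF-hands beside an ion transport domain are the make-up of the vacuolar cation channel TPC1 of Arabidopsis. BnaCnng16060D had 6.74, 6.17 and 5.61 CPM in Ca-deprived roots against 18.0, 17.7 and 17.6 CPM in controls (log2 fold change −1.51). BnaA03g57170D had 5.46, 5.44 and 6.0 CPM against 14.9, 15.4 and 13.8 CPM (−1.37). BnaC09g00810D had 28.4, 30.1 and 32.2 CPM against 61.3, 58.0 and 55.2 CPM (−0.93). Replicates of these genes were close together in both groups and did not overlap between them.

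Outside Ca deprivation the channel genes were called in 2 instances, BnaC09g00810D without P (40.3, 38.4 and 29.2 CPM; log2 fold change −0.70) and BnaA09g01640D without N (70.3, 65.4 and 66.9 CPM against 99.3, 92.6 and 87.1 CPM in controls; −0.45). In Ca-deprived roots BnaA09g01640D had 49.5, 55.5 and 58.0 CPM. Without S all 4 channel genes had log2 fold changes above 0, from 0.10 to 0.59, and none was called.

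**Figure D3:**
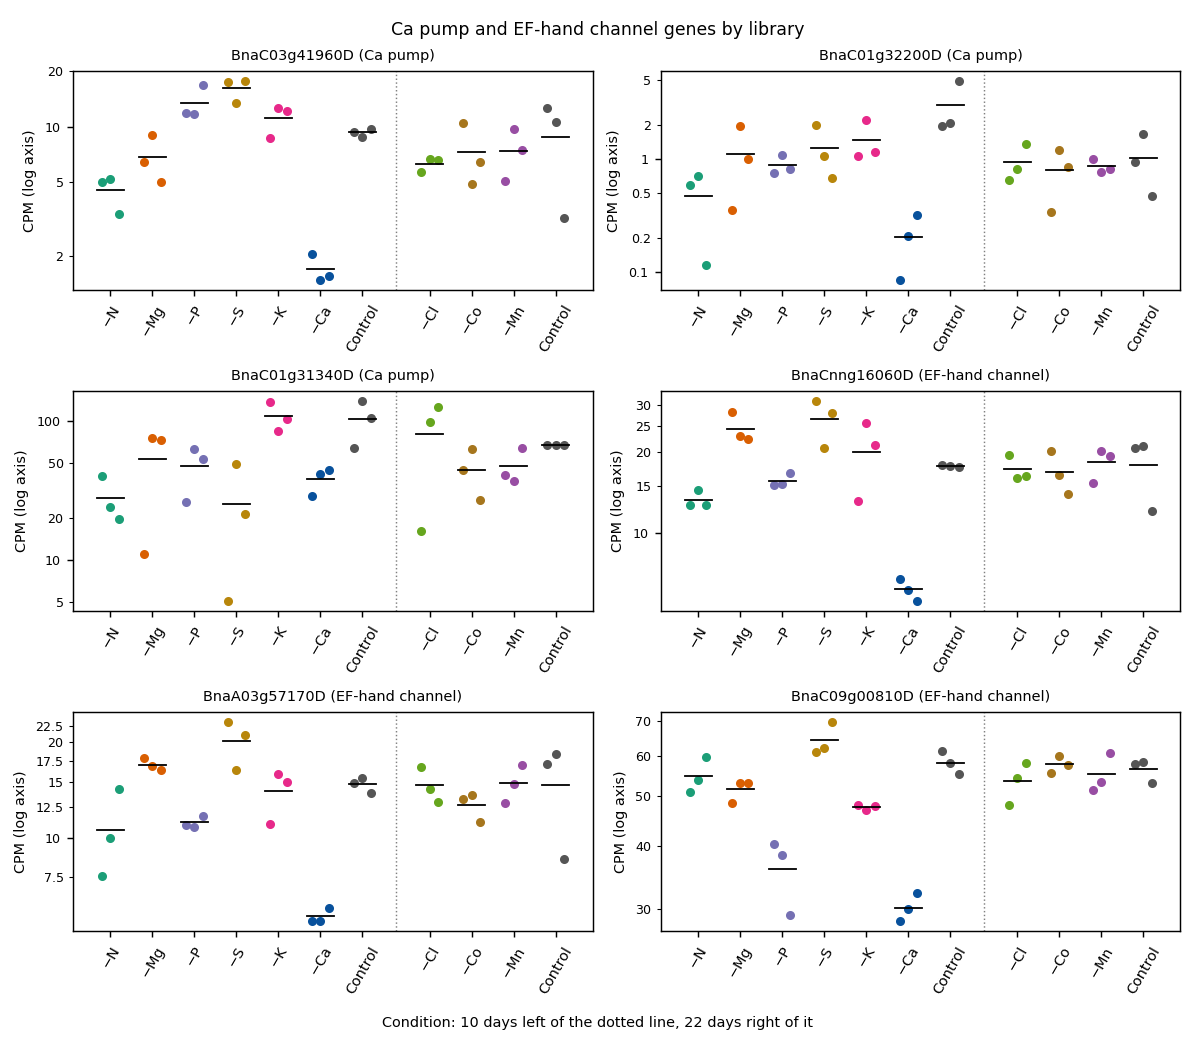
CPM on a log axis in every library of the 11 conditions for 3 Ca pumps and 3 EF-hand channels; points are libraries and bars the mean CPM of 3 libraries. The channel genes are lowest without Ca (5.61 to 6.74 CPM for BnaCnng16060D), and the pump BnaC01g31340D spreads from 5.10 to 48.8 CPM among the S-deprived libraries.

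The genes with an MCU domain and the genes without a domain contributed 7 of the 9 called higher in Ca-deprived roots. MCU proteins let Ca2+ into the mitochondrial matrix. Of the 10 MCU genes 5 were called higher and 1 lower without Ca, and without control replicate 2 only 1 of them was called higher. BnaAnng35090D had 7.77, 9.34 and 9.87 CPM in Ca-deprived roots against 3.30, 1.35 and 2.74 CPM in controls, a log2 fold change of 1.88 with no overlap. In Mg-deprived roots BnaAnng35090D had 17.4, 4.57 and 6.82 CPM, a log2 fold change of 1.94 that was 1.18 without Mg replicate 1. Mg replicate 1 was the highest of the 33 libraries for BnaAnng35090D, and the other Mg libraries were also above every 10-day control.

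BnaAnng35100D, the next identifier after BnaAnng35090D and one of the genes with no domain, followed its neighbour. It had 6.57, 6.39 and 9.03 CPM without Ca (log2 fold change 1.95) and 11.8, 4.85 and 4.81 CPM without Mg (1.89), against 2.75, 0.845 and 2.09 CPM in controls. No Ca- or Mg-deprived library of BnaAnng35100D overlapped with a control.

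The other MCU gene and domain-free gene with consecutive identifiers, BnaC02g29540D and BnaC02g29530D, showed the same pair of calls at far fewer counts. BnaC02g29540D had 0.512, 1.53 and 1.35 CPM without Ca and 3.75, 1.25 and 1.55 CPM without Mg, against 0.550, 0.338 and 0.144 CPM in controls. BnaC02g29530D had 1.02, 1.16 and 0.903 CPM without Ca and 2.41, 1.11 and 0.853 CPM without Mg, against 0.314, 0.253 and 0.144 CPM in controls. The log2 fold changes were 1.77 without Ca and 2.63 without Mg (2.0 without Mg replicate 1) for BnaC02g29540D, and 2.11 and 2.58 for BnaC02g29530D. One Ca-deprived library of BnaC02g29540D lay within its controls, and the other groups did not overlap. These 4 genes were the ones called higher under both Mg and Ca deprivation, where 338 of all 56667 genes were. The same calls chose the genes, so nothing is read from this share. Mg replicate 1 was the highest Mg library for each of these genes, and without it no Ca transporter gene was called under Mg deprivation. Whether the neighbours of each pair are separate genes or pieces of 1 gene was not tested.

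BnaC02g48870D and BnaAnng39050D, also of the MCU class, were 2 of the 3 genes called under no deprivation by the quasi-likelihood test. BnaC02g48870D had 6.52, 7.59 and 5.82 CPM without K against 3.22, 2.03 and 3.17 CPM in controls (log2 fold change 1.24). BnaAnng39050D had 16.1, 20.2 and 13.3 CPM without K against 8.32, 4.81 and 9.00 CPM (1.16). The K-deprived libraries of both were above all controls. In Ca-deprived roots BnaC02g48870D had a log2 fold change of −0.18 and BnaAnng39050D of 0.09, and both signs turned when single libraries were left out. The third gene without a call was the Ca pump BnaC03g15370D, whose largest log2 fold change was −1.47 under S deprivation (0.879, 2.33 and 1.02 CPM against 5.26, 4.22 and 1.87 CPM in controls).

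BnaC01g27440D was the MCU gene called lower without Ca, and this rested on 1 control library and ended with all 33 libraries in the fit. It had 0.0854, 0.105 and 0 CPM in Ca-deprived roots against 2.51, 0.338 and 0.144 CPM in controls, and at most 3 counts in each Ca-deprived library put it at least 4.93-fold lower. BnaA09g07780D, also low in counts, had 1.20, 2.74 and 1.35 CPM in Ca-deprived roots against 0.628, 0.253 and 0.216 CPM in controls (log2 fold change 2.29). The Ca-deprived libraries of BnaA09g07780D were all above its controls.

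The 10 proton pump genes were split in direction. Of these, 3 were called lower and 2 higher in Ca-deprived roots, and 4 lower and 1 higher in P-deprived roots. With only the conditions compared in the fit, 0 were called higher in Ca-deprived roots. BnaAnng10900D had 0.529, 0.800 and 0.446 CPM in P-deprived roots against 26.6, 15.8 and 31.9 CPM in controls, and its log2 fold change of −5.37 was the largest of any of the 56 genes in the 10-day comparisons. In Ca-deprived roots BnaAnng10900D had 4.01, 3.48 and 2.90 CPM (log2 fold change −2.83), and in N-deprived roots 10.6, 13.7 and 12.4 CPM (−1.01). Its K-deprived libraries had 25.0, 62.9 and 51.3 CPM, overlapping with the controls, while all N-, P- and Ca-deprived libraries were below them.

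BnaAnng10910D, the next identifier after BnaAnng10900D, had 2.49, 6.04 and 2.38 CPM in P-deprived roots and 7.85, 8.07 and 6.83 CPM in Ca-deprived roots, against 40.6, 23.3 and 49.0 CPM in controls. Its log2 fold changes were −3.37 without P and −2.30 without Ca, again with no overlap. In K-deprived roots BnaAnng10910D had 36.3, 111 and 61.3 CPM, and K replicate 2 was the highest library for both neighbours. Both carry the same annotated domains, those of a subfamily IIIA proton pump. Whether the identifiers are separate genes or pieces of 1 gene was not tested.

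BnaA09g38390D had 0.683, 0.369 and 0.322 CPM in Ca-deprived roots against 7.15, 3.80 and 3.82 CPM in controls (log2 fold change −3.44). In S-deprived roots it had 10.9, 12.3 and 12.5 CPM and was called higher (log2 fold change 1.28). Like the Ca pump BnaC03g41960D, BnaA09g38390D was thus above all controls without S and below all controls without Ca. BnaA08g13170D was called higher under 3 deprivations, with 6.87, 6.91 and 6.46 CPM without P, 6.27, 4.77 and 7.51 CPM without S and 3.67, 4.17 and 2.32 CPM without Ca, against 2.20, 1.94 and 1.15 CPM in controls. No deprived library of these 3 conditions overlapped with a control of BnaA08g13170D.

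Without N, BnaA10g11420D was called higher at 5.62, 3.58 and 5.83 CPM against 1.89, 0.760 and 2.23 CPM in controls (log2 fold change 1.61). BnaC09g32850D was likewise called higher without N, at 5.70, 3.38 and 6.94 CPM against 2.98, 2.28 and 1.30 CPM (1.30). The N-deprived libraries of both were above their controls. All 10 proton pump genes had log2 fold changes below 0 without Mg. The one called was BnaA09g52060D, at 36.3, 39.1 and 39.8 CPM against 58.2, 56.1 and 59.6 CPM in controls. BnaA09g52060D was placed in this class by its GO term alone. It has no subfamily IIIA annotation and carries a C-terminal P-type ATPase domain that most Ca pumps have and the IIIA genes lack.

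**Figure D4:**
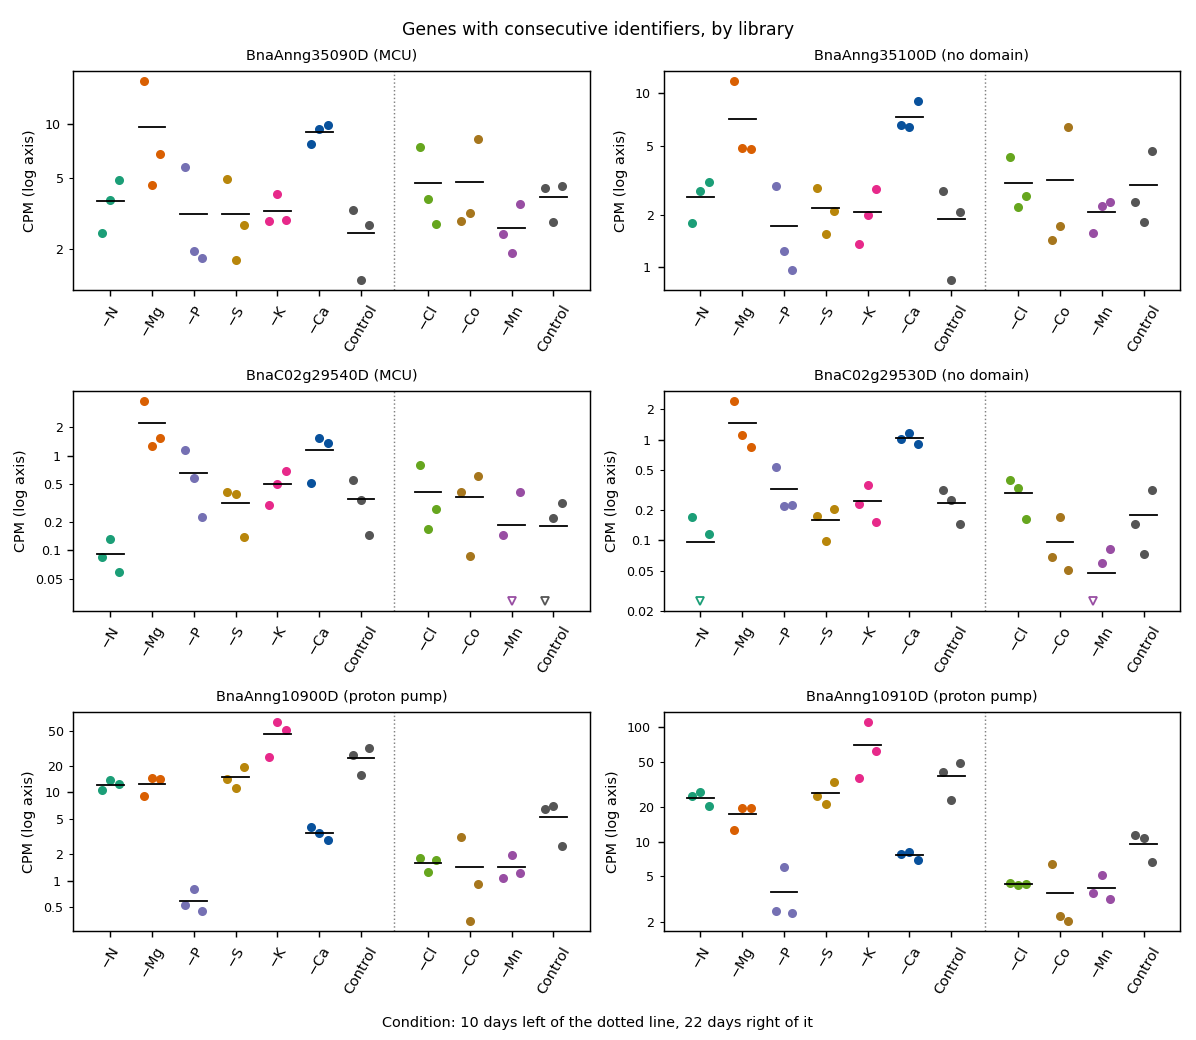
CPM on a log axis in every library of the 11 conditions for 6 genes whose identifiers follow each other in pairs; points are libraries, open triangles libraries with a count of 0, and bars the mean CPM of 3 libraries. In the upper 4 panels the bars of the Mg- and Ca-deprived roots are highest, and in the lower 2 panels the bar of the P-deprived roots is the lowest of 10 days, from libraries at 0.446 to 0.800 CPM for BnaAnng10900D.

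Replicates of a condition differed widely for some exchanger and pump genes, and the same libraries were low for many of them. For BnaA06g01060D the lowest library was 1.04 below its condition mean on the log2 scale in control replicate 3 of 10 days, 1.09 below in S replicate 1 and 1.31 below in Cl replicate 1. BnaA06g01060D had 69.5, 297 and 159 CPM in the S-deprived libraries, 126, 249 and 316 CPM in the Mg-deprived libraries and 139, 491 and 609 CPM in the Cl-deprived libraries. The replicates of these conditions lay far apart, while the Ca-deprived replicates of BnaA06g01060D were close together.

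The library that was lowest for BnaA06g01060D was also lowest for BnaA05g14600D in 11 of the 11 conditions and for BnaCnng29300D in 10. It was lowest in 9 conditions for BnaC07g42210D, a Ca pump, which had 131, 117 and 102 CPM in Ca-deprived roots against 294, 310 and 131 CPM in controls. Of the 48 other Ca transporter genes with a mean of at least 1 CPM, 14 shared the lowest library in 8 or more conditions, and 8 of these 14 were Ca pumps. Over all 49933 genes at that level the share was 9.75%. The 10-day libraries among these also chose the genes, so nothing is read from this share. Deviations from the condition means correlated below 0 with those of BnaA06g01060D for 22 of the 55 other Ca transporter genes (median Pearson r 0.183). Among the 9 CAX genes this held for 5 (median r −0.148). These are descriptions of 33 libraries that share conditions and processing. The share of unmapped read pairs in control replicate 3 of 10 days was 11.4%, against 16.0% and 15.7% in the other controls, while in Mg replicate 1 it was 15.0% against 8.31% and 10.8%, and its part in these values was not tested.

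**Figure D5:**
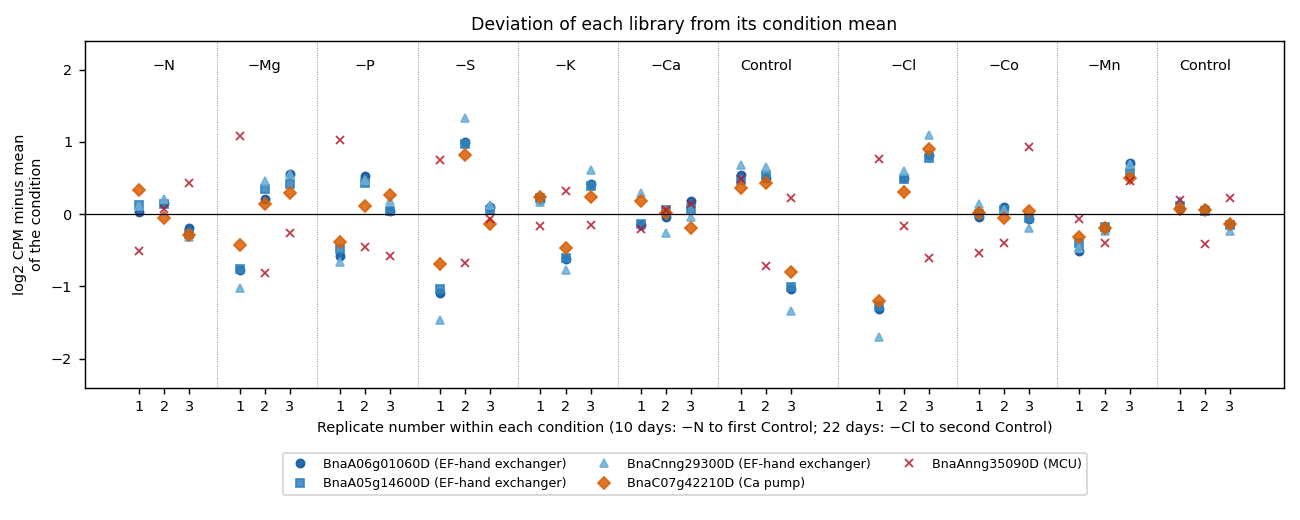
Log2 CPM of each library minus the mean of its condition for 3 EF-hand exchangers, the Ca pump BnaC07g42210D and the MCU gene BnaAnng35090D, in the 3 replicates of 11 conditions. The exchangers and the pump fall together in Mg replicate 1, S replicate 1, Cl replicate 1 and control replicate 3 of 10 days, and BnaAnng35090D lies above 0 in these libraries.

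The libraries of 22 days took no part in choosing the genes, so deprivation of Cl, Co and Mn could be tested. Of the 56 genes 50 passed the low-count filter there, and those removed were BnaA05g16820D, BnaC05g29600D, BnaA09g07780D, BnaC01g27440D, BnaC02g29530D and BnaC02g29540D. By the quasi-likelihood test of edgeR 0 of the 50 were called without Cl, without Co or without Mn, as were 0.0% of all 54251 genes in each comparison. At an unadjusted p of 0.05 or less there were 3 genes of the 50 without Cl, 5 without Co and 9 without Mn, against 4.10%, 10.3% and 11.7% of all genes. With the nearly identical controls summed the calls stayed at 0 of 52 genes in each comparison, and the unadjusted counts were 3, 4 and 7, against 2.81%, 6.16% and 7.31% of all 55251 genes. The likelihood ratio test called 0, 1 and 1 of the genes without Cl, Co and Mn, and 33, 77 and 182 of all 54251 genes. DESeq2 called 0, 0 and 1 of the genes, and over all genes 34 and 52 of 54158 without Cl and Co and 188 of 46811 without Mn.

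The gene behind these calls was the CAX exchanger BnaA04g21850D. It had 11.0, 9.10 and 13.2 CPM without Mn and 10.2, 11.6 and 16.6 CPM without Co, against 28.8, 27.7 and 19.8 CPM in the 22-day controls, with no overlap. The log2 fold change of BnaA04g21850D was −1.17 (SE 0.22) without Mn, lower in 3 of 3 libraries, with an edgeR quasi-likelihood adjusted p of 0.294. Its adjusted p without Mn was 0.00242 by the likelihood ratio test of edgeR and 0.00255 by DESeq2, 0.671 with the nearly identical controls summed, and 0.00242 to 0.904 over 15 alternatives. Without Co the log2 fold change of BnaA04g21850D was −0.97 (SE 0.22), with an edgeR quasi-likelihood adjusted p of 0.473 and a range of 0.0451 to 0.737 over the alternatives, the highest with those controls summed. The Cl-deprived libraries, at 20.1, 22.4 and 27.2 CPM, overlapped with the controls. The 22-day controls of BnaA04g21850D were all above its 10-day controls (6.42 to 15.6 CPM), a log2 fold change of 1.27 that was not called. Its mean was 25.4 CPM in the 22-day controls, 11.1 CPM without Mn, 12.8 CPM without Co and 10.5 CPM in the 10-day controls.

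The neighbouring proton pumps had lower values in all 3 deprivations of 22 days, which share their controls. BnaAnng10900D had 1.79, 1.24 and 1.69 CPM without Cl, 3.08, 0.344 and 0.903 CPM without Co and 1.07, 1.96 and 1.22 CPM without Mn, against 6.44, 6.92 and 2.44 CPM in controls. The log2 fold changes of BnaAnng10900D were −1.75 (SE 0.57), −1.83 (SE 0.58) and −1.85 (SE 0.58), and the edgeR adjusted p was 1.0, 0.473 and 0.368, or 1.0, 0.737 and 0.671 with the nearly identical controls summed. BnaAnng10910D had 4.37, 4.13 and 4.26 CPM without Cl against 11.4, 10.7 and 6.61 CPM in controls, a log2 fold change of −1.19 (SE 0.38) with an edgeR adjusted p of 1.0, also with those controls summed. None of these passed the threshold, and the 2 controls at 6.44 and 6.92 CPM are the nearly identical libraries.

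Of the 5 EF-hand exchangers, 4 were called lower without Ca. At 22 days the log2 fold changes of all 5 ran from −0.06 to 0.36 without Cl and from −0.89 to −0.02 without Co. Without Mn they ran from −0.78 to −0.35, and none was called in any of the 3 comparisons. The median over the 50 genes was −0.02 without Cl, −0.18 without Co and −0.33 without Mn, against 0.00 over all genes without Cl and Mn and 0.01 without Co. With the nearly identical controls summed the medians were 0.04, −0.12 and −0.25 without Cl, Co and Mn. The nutrient left out and the time without it differ together between the 10-day and 22-day libraries, so their parts cannot be told apart.

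Controls of 22 days against controls of 10 days gave 2 called genes of 56, both lower, where 0.647% of all 57501 genes were called, 0.372% higher and 0.275% lower. The 10-day controls also took part in choosing the genes, so this is a description. BnaAnng10900D had 6.44, 6.92 and 2.44 CPM at 22 days against 26.6, 15.8 and 31.9 CPM at 10 days (log2 fold change −2.23), and BnaAnng10910D had 11.4, 10.7 and 6.61 CPM against 40.6, 23.3 and 49.0 CPM (−1.98). The 22-day controls of both were below all 10-day controls. Of the 2 genes, BnaAnng10900D alone was called with the nearly identical controls summed, and neither was called without control replicate 3 of 10 days. The median over the 56 genes was −0.05, or −0.14 with those controls summed.

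The other 246 ion transport genes of the list, chosen by the same comparisons, are set beside the 56 Ca transporter genes as a description. Without Ca, 37 of the 56 Ca transporter genes and 141 of the 246 others were called, the others 45 higher and 96 lower. Without P these counts were 25 of 56 and 138 of 246, and without N they were 20 of 56 and 107 of 246. Without S they were 10 of 56 and 30 of 246, without Mg 11 of 56 and 26 of 246, and without K 1 of 56 and 15 of 246. The median log2 fold change without Ca was −0.76 over the Ca transporter genes and −0.45 over the others, and without P it was −0.67 and −0.42. Among the others, 20 of the 32 genes listed under K were called without Ca, 3 higher and 17 lower, with a median of −0.73. Of the 16 genes listed under Mg, 9 were called without Ca, 2 higher and 7 lower, with a median of −0.515. The 3 sodium symport genes that carry a sodium/calcium exchanger region were not called without Ca. Within the Ca transporter genes, 20 of the 29 A subgenome genes and 17 of the 27 C subgenome genes were called without Ca, with medians of −0.76 and −0.83.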

How the data were processed

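Per the labels and the methods of the study, the authors made stranded mRNA libraries, trimmed paired-end reads, aligned them with STAR to the Genoscope annotation V5 and deposited for every gene the count of its read pairs, in whole numbers and with no normalization; pairs with several hits were left out, which lowers the counts of genes with near-identical copies. The count column of the reverse strand was used (the other strand held at most 0.782% in a library). Differences were tested by the quasi-likelihood method of edgeR 4.0.16 (R 4.3.3; filterByExpr, then TMM, glmQLFit and glmQLFTest) in 1 fit per time point with a term for each condition, and in 1 fit of all 33 libraries for controls of 22 against 10 days, with Benjamini-Hochberg adjustment over all genes tested and a threshold of 0.05. The script was checked on simulated counts. Standard errors were taken from the size of the log2 fold change over the root of F. The floor was 3 counts per library and covers counting error only. Libraries had 10115284 to 22841765 gene counts; depth and 3 libraries per condition limit the precision.

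The members and lists were chosen with earlier results of these data known. Genes were named by this rule: members called at 22 days (there were 0 by the main test), in each class the 3 with the largest span of mean log2 CPM over the 10-day conditions among those of at least 1 CPM on average, and genes with consecutive identifiers. BnaA10g27650D, BnaCnng03980D, BnaC03g69500D, BnaC06g06210D, BnaA05g16820D, BnaC04g47760D, BnaA01g07100D, BnaA03g54160D, BnaC07g42210D, BnaC03g15370D, BnaC05g29600D, BnaA09g01640D, BnaC01g27440D, BnaA09g07780D, BnaA08g13170D, BnaA10g11420D, BnaC09g32850D and BnaA09g52060D were named after their values were seen. Alternatives were the likelihood ratio test, DESeq2 1.42.0, RLE factors, no low-count filter, only the conditions compared, all 33 libraries, counts without strand, a replicate block, each replicate left out and, chosen after seeing the data, the nearly identical controls summed. Figures were drawn with matplotlib 3.10.9. Gene identifiers matched 0 entries of the RefSeq table at hand, so no sequence is given.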

Additional observations from a re-analysis of the deposited data

How the results depend on the processing

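Of 143 alternative counts of called genes, 109 stayed within 1.5 times the main count and 34 did not. The Cl, Co and Mn comparisons, each with 15 alternatives, had a main count of 0, and an alternative of 0 counted as staying. For the genes named by the rule, 30 fold changes were checked, in the comparison of the largest change and under Ca deprivation. None of those called changed sign. Genes named after their values were seen were not checked in this way. With a fit of only the conditions compared, which leaves fewer libraries to estimate the spread, the count was 13 for N (20 in the main test), 0 for Mg (11; 22 genes at an unadjusted p of 0.05 or less), 0 for S (10; 19 unadjusted), 0 for K (1; 9 unadjusted) and 0 for the 22-day against 10-day controls (2; 10 unadjusted). The likelihood ratio test gave 16 for S, 3 for K, 1 for Co and 1 for Mn, and DESeq2 gave 16 for S, 3 for K and 1 for Mn. With all 33 libraries in the fit the count was 6 for S and 0 for K (12 unadjusted), and with no low-count filter 0 for K (13 unadjusted). With the nearly identical controls summed, the controls of 22 against 10 days gave 1. The cause of these differences in count was not tested for any of the alternatives.

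With each replicate left out in turn, edgeR called 11 to 20 genes for N, 0 to 12 for Mg, 18 to 26 for P, 1 to 11 for S, 0 to 1 for K, 30 to 36 for Ca and 0 to 5 for the 22-day against 10-day controls, and 0 for Cl, Co and Mn. For the controls the count was 5 without control replicate 1 of 10 days, 0 without replicate 3 of 10 days, and 1 without replicate 1 or without replicate 2 of 22 days. The median under N was −0.32 with only the conditions compared, and that of the 22-day against 10-day controls was 0.13 without replicate 3 of 22 days.

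Replicate numbers were not taken to pair the samples: 10 of 30 correlations of same-numbered libraries were above 0.1, and in 1 of 10 comparisons, Co against control, every one was. With the replicate block the counts were 19 for N, 11 for Mg, 24 for P, 11 for S, 1 for K, 37 for Ca, 0 for Cl, Co and Mn (5, 9 and 13 unadjusted) and 3 for the 22-day against 10-day controls. Depth limits the genes under about 1 CPM, of which 6 were filtered out at 22 days.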
